A study of Cricetulus griseus with 10 samples.

Results

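The genes described are 8 adhesive glycoproteins of the extracellular matrix, namely the thrombospondins Thbs1 and Thbs2, fibronectin (Fn1), fibulin-3 (Efemp1), Sparc, osteopontin (Spp1), tenascin C (Tnc) and vitronectin (Vtn). They were picked by name from the 25156 features of 1 table of gene expression. Of them, 6 are named there by symbol and the other two by NCBI Gene number, Sparc as 100760092 and Spp1 as 100769547. The cells were wild-type CHO-K1, an established Chinese hamster ovary line, adapted to suspension growth in the serum-free medium SFM4CHO. RNA was sequenced at passages 0, 2, 4, 6 and 10 of the adaptation, written here as P0 to P10, with 2 libraries at each passage and 10 in all. All groups share the line, the genotype and the medium named in the labels, and the labels do not say how the cells of P0 were grown or whether duplicates came from separate cultures. The p-values therefore measure only the spread between these libraries, which may be technical. The study asked how gene expression changes while the cells adapt to suspension.

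Adhesive glycoproteins tie cells to the matrix. Fibronectin is laid down as fibrils and carries a short RGD motif that integrins at the cell surface bind, and vitronectin and osteopontin are bound in a similar way. Thrombospondins, Sparc and tenascin C belong to the matricellular proteins, which modulate adhesion more than they build structure, and Thbs1 also binds the receptors Cd36 and Cd47 and can activate latent TGF-beta. Attached cells gather integrins and adaptor proteins into focal adhesions at their contacts with the matrix. Cells in suspension have no such support.

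The reads assigned to genes ranged from 8394219 to 16599495 per library. Expression is given as normalised reads, that is, reads divided by a size factor for each library. Duplicates correlated at 0.988 to 0.992 at P0, P2 and P4 (Pearson's r of log2 values across genes), at 0.956 at P6 and at 0.930 at P10. P6 replicate 2 and P10 replicate 1 also stood apart in the feature Dym, which held 1.15% and 1.41% of their normalised reads but 4.32 to 13.5% of those of the other 8 libraries. Of 6 mesenchymal markers, Vim had means of 13370 to 19970 normalised reads, S100a4 of 827 to 3822, Pdgfra of 677 to 1517, Pdgfrb of 357 to 766, Col1a1 of 4.45 to 46.1 and Col1a2 of at most 2.08. Of the 5 tested by limma, Col1a1 rose at P2 (log2 2.93, adjusted p = 0.0109), a call lost without P0 replicate 1 or either P2 library. At P4, 3 rose, and 0 fell at P2 or P4, where 2.08% and 3.72% of all tested features rose. At P10, 0 of the 5 had risen and 1 had fallen, where 8.25% of all features fell, and their median log2 difference was 0.57. The gene that fell was Pdgfra (log2 -1.20, adjusted p = 0.0111). This call was lost without either P0 library and when the other passages were left out of the fit. Of 5 epithelial markers, the keratins Krt8, Krt18 and Krt19 had means of at most 4.22 and Epcam of at most 13.8, whereas Cdh1 had means of 240 at P0, 226 at P2, 186 at P4, 70.3 at P6 and 209 at P10. Cdh1, the only 1 tested, was not called against P0 at any later passage. The P10 duplicates lay far apart, with the 5 markers summing to 95.4 and 351. Of the granulosa markers of the ovary, 3 were matched (Amh, Fshr and Inha), and their summed level was 32.8 to 78.6 in all libraries. The 8 leukocyte markers summed to 48.8 to 63.2 at P0, 101 to 107 at P2, 179 to 207 at P4, 149 to 208 at P6 and 105 to 167 at P10. Of these, the pan-leukocyte gene Ptprc had means of 12.3 to 23.6, Cd68 of 34.8 at P0 to 103 at P6 (adjusted p = 0.0121, lost without either P0 library or P6 replicate 2), Laptm5 of 2.61 at P0 to 26.2 at P6 (adjusted p = 0.101) and Csf1r of at most 7.92. Cd3e and Aif1 had means of at most 0.562 at every passage, while Itgax, an integrin subunit of myeloid cells, went from 0.719 at P0 to 36.6 at P2, 74.7 at P4, 20.1 at P6 and 25.7 at P10 (adjusted p = 0.00176 at P10). The P10 call of Itgax was lost by limma when the other passages were left out of the fit (adjusted p = 0.0833). The part of these markers in the results was not tested.

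Differences were tested with limma on log2 of the normalised reads plus 1, with 1 spread per gene pooled over the 5 passages, and a gene passed at a Benjamini-Hochberg adjusted p under 0.05 over all 13521 features that averaged 10 or more normalised reads. Vtn did not reach that mean, which left 7 of the 8 genes. At P2, 2 of the 7 had fallen (Thbs1 and Efemp1) and 1 had risen (Spp1), where 4.15% of all tested features passed (2.07% lower and 2.08% higher). The same genes passed in the same directions at P4, where 9.24% passed (5.52% lower and 3.72% higher). At P6, 4 fell (Thbs1, Fn1, Efemp1 and Thbs2) and 2 rose (Spp1 and Tnc), where 21.0% of features passed (10.5% lower and 10.5% higher). At P10, 3 had fallen (Thbs1, Fn1 and Efemp1), where 17.0% of features passed (8.25% lower and 8.77% higher). These 4 comparisons share the P0 libraries, so their counts are not independent of each other. The median log2 difference of the 7 genes was 0.05, 0.07, -0.96 and -0.50 at P2, P4, P6 and P10, beside 0.01, 0.03, -0.07 and 0.00 over all tested features. In a test for any difference among the 5 passages, 5 of the 7 passed (all but Sparc and Tnc), as did 11.0% of all features.

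**Figure D1:**
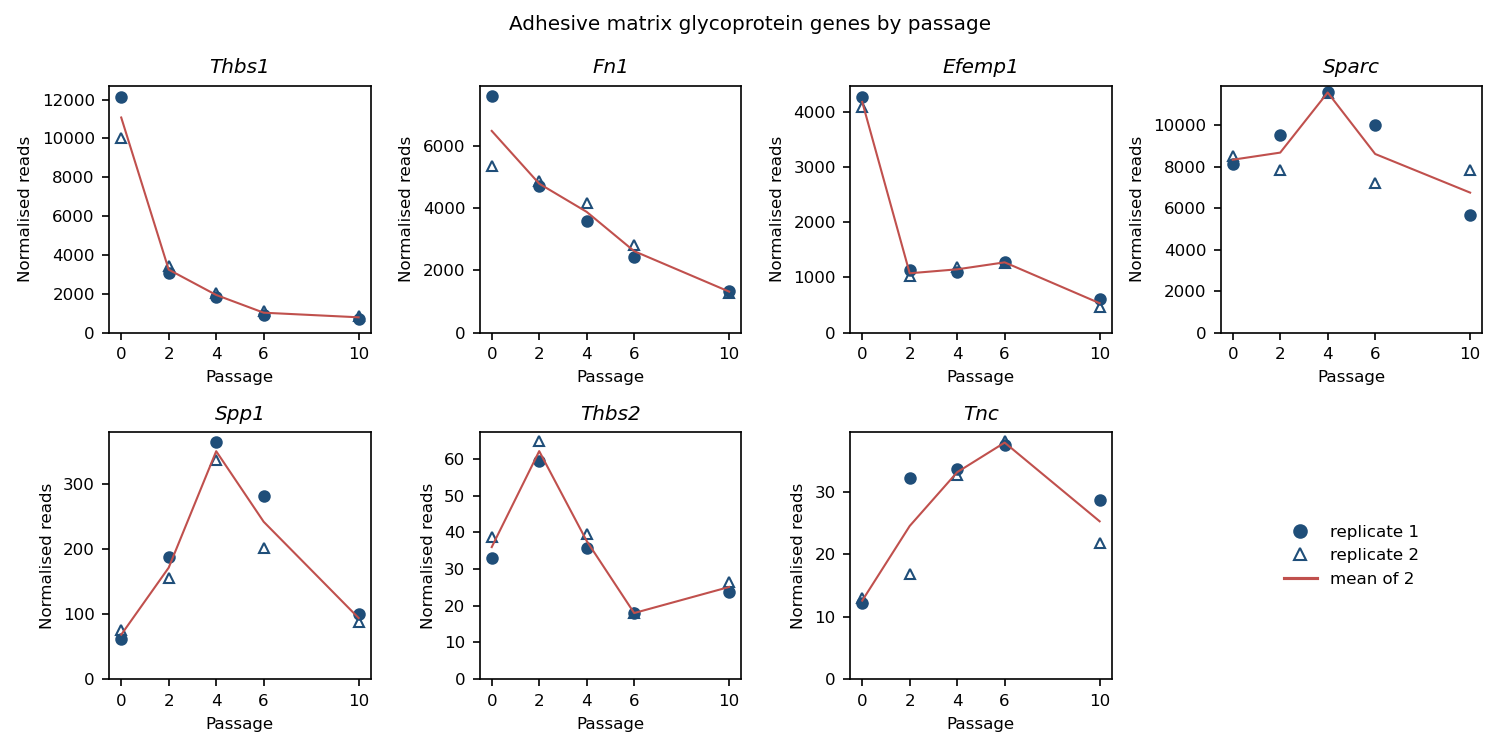
Normalised reads (vertical axis, starting at 0) of the 7 tested glycoprotein genes against passage, with replicate 1 as filled circles, replicate 2 as open triangles and the mean of the pair as a line. Thbs1, Fn1 and Efemp1 are highest at P0 and lowest at P10, Spp1 and Sparc have their highest mean at P4, Thbs2 at P2 and Tnc at P6.

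Thbs1 encodes thrombospondin 1, a trimeric secreted glycoprotein that binds integrins, Cd36, Cd47 and heparan sulfate. It had 12125 and 10022 normalised reads in the P0 libraries, then 3043 and 3440 (P2), 1857 and 2016 (P4), 915 and 1132 (P6), and 719 and 855 (P10). Both libraries of each passage lay below both libraries of the passage before it, with no overlap at any step. Over all tested features, the duplicates did not overlap in 67.1% from P0 to P2 and in 51.9% from P2 to P4. The share was 66.5% from P4 to P6 and 24.5% from P6 to P10. Relative to P0 the log2 change was -1.77 at P2, -2.51 at P4, -3.44 at P6 and -3.81 at P10 (SE 0.19 each), with adjusted p-values of 0.00224, 0.000234, 5.45e-05 and 4.67e-05. Thbs1 passed in each of these 4 comparisons in all 10 fits that left out 1 library. From P0 to P10 the mean went from 11073 ± 1488 to 787 ± 95.9 (SD, n = 2 each), a ratio of 14.1. The first sampled interval, P0 to P2, held 46.4% of the whole log2 fall, and the intervals to P4, P6 and P10 held 19.4%, 24.3% and 9.88%. The last of these was 5.84% without P6 replicate 2. In bulk RNA, fewer cells that express a gene and less of its RNA per cell cannot be told apart, here and in every result that follows. Among the 13521 features tested, the P10 fall of Thbs1 was the 11th largest on the log2 scale and its p-value the 3rd smallest.

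Thbs2 encodes the closely related thrombospondin 2, and it followed another course at a low read number. Its libraries held 33.1 and 38.8 normalised reads (P0), 59.4 and 64.8 (P2), 35.6 and 39.6 (P4), 18.0 and 18.0 (P6), and 23.6 and 26.5 (P10), which correspond to 16 to 58 reads. Both P2 libraries were the highest of the 10 and both P6 libraries the lowest. Over all tested features, duplicates of neighbouring passages did not overlap in the shares given for Thbs1. The share was 67.7% for P6 with P0 and 42.7% for P10 with P2. The log2 difference from P0 was 0.77 at P2 (SE 0.28, adjusted p = 0.171) and 0.07 at P4 (adjusted p = 0.919). The P2 value passed by limma when only the P0 and P2 libraries entered the fit (adjusted p = 0.0355). At P6 the gene passed as lower, at -0.96 (adjusted p = 0.0409), and at P10 it stood at -0.50 (adjusted p = 0.249). The P6 call is weak, since it held in 2 of the 10 fits that left out 1 library, those without a P10 library; adjusted p reached 0.199 without P0 replicate 2. It was also missed by edgeR and DESeq2 on the recovered reads (adjusted p = 0.0509 and 0.0930), without a filter on low values (0.0842) and from the P0 and P6 libraries alone (0.134).

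The relation between thrombospondins within a library makes the contrast visible. The third thrombospondin, Thbs3, which forms pentamers, had means of 1403, 1594, 1752, 1056 and 1086 normalised reads from P0 to P10, and its difference from P0 passed at none of the 4 later passages by limma (adjusted p = 0.159 to 0.731). The ratio of Thbs1 to Thbs3 in the same library, not corrected for length, was 8.41 and 7.34 (P0), 2.05 and 2.02 (P2), 1.05 and 1.16 (P4), 0.765 and 1.24 (P6), and 0.777 and 0.686 (P10). Every P0 ratio was above every later ratio, and both P2 ratios were above those of P4, P6 and P10. The other two thrombospondin genes, Thbs4 and Comp, had means under 10 at all 5 passages and were not tested.

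Fn1 encodes fibronectin, the main ligand of the integrin of Itga5 and Itgb1. Its libraries held 7604 and 5351 normalised reads (P0), 4712 and 4852 (P2), 3600 and 4154 (P4), 2433 and 2797 (P6), and 1344 and 1287 (P10). Here too no library of one passage overlapped with the passage before it, although the P0 duplicates differed by 1.42-fold. The shares of all features without overlap at these steps are those given for Thbs1. The differences from P0 were smaller at first than those of Thbs1. They were -0.42 on the log2 scale at P2 (SE 0.21, adjusted p = 0.332) and -0.72 at P4 (adjusted p = 0.0615). Neither passed by limma in the fit of all libraries. The P4 difference passed by DESeq2 on the recovered reads (adjusted p = 0.0165) and by limma from the P0 and P4 libraries alone (0.00492). At P6 and P10 Fn1 fell, with log2 changes of -1.29 (adjusted p = 0.00506) and -2.28 (adjusted p = 0.000541), from 6477 ± 1593 to 1316 ± 40.5 normalised reads, a ratio of 4.92. Leaving out P0 replicate 1 ended the P6 call (adjusted p = 0.0573). The P10 call held in all 10 fits that left out 1 library, but from the P0 and P10 libraries alone adjusted p was 0.0536. Gene-level counts do not separate the splice forms of fibronectin.

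The interval with the largest share of the log2 fall was P6 to P10 for Fn1 and P0 to P2 for Thbs1, also with any 1 of the 10 libraries left out. P6 to P10 spans more passages than each earlier interval, and the shares are not scaled to the number of passages. For Fn1, P0 to P2 held 18.2% of it, P2 to P4 held 13.5%, P4 to P6 held 24.9% and P6 to P10 held 43.4%. The first of these shares was 8.01% without P0 replicate 1 and the second 8.92% without P4 replicate 1. The ratio of Thbs1 to Fn1 in the same library, again not corrected for length, was 1.59 and 1.87 (P0), 0.646 and 0.709 (P2), 0.516 and 0.485 (P4), 0.376 and 0.405 (P6), and 0.535 and 0.664 (P10). Both P0 ratios lay above all others, the P6 ratios were the lowest, and those of P10 lay above those of P6. Differences between genes in these shares and ratios were not tested.

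Efemp1 encodes fibulin-3, a secreted glycoprotein with EGF-like repeats. Its P0 libraries held 4275 and 4080 normalised reads. The 6 libraries of P2, P4 and P6 stayed within 1019 to 1285, with 1129 and 1019 at P2, 1099 and 1192 at P4, and 1285 and 1259 at P6. The P10 libraries were lower again, at 602 and 462. Efemp1 fell by 1.96 on the log2 scale at P2 (SE 0.17, adjusted p = 0.000903), stood at -1.87 and -1.71 at P4 and P6 (adjusted p = 0.000663 and 0.000846), and fell by 2.98 at P10 (adjusted p = 6.71e-05). All 4 calls held in each of the 10 fits without 1 library. The mean went from 4178 ± 138 at P0 to 532 ± 99.3 at P10, a ratio of 7.85. The means thus had 2 drops with a level stretch between them, and P0 to P2 held 65.7% of the log2 fall. The second drop, from P6 to P10, did not pass by limma (adjusted p = 0.318) but passed by DESeq2 on the recovered reads (8.04e-06). Of the 7 other fibulin genes listed, 6 were matched and 1, Efemp2 (fibulin-4), was tested, with means of 1175, 1292, 1519, 756 and 644 normalised reads and no difference from P0 that passed (adjusted p = 0.0766 at P10).

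**Figure D2:**
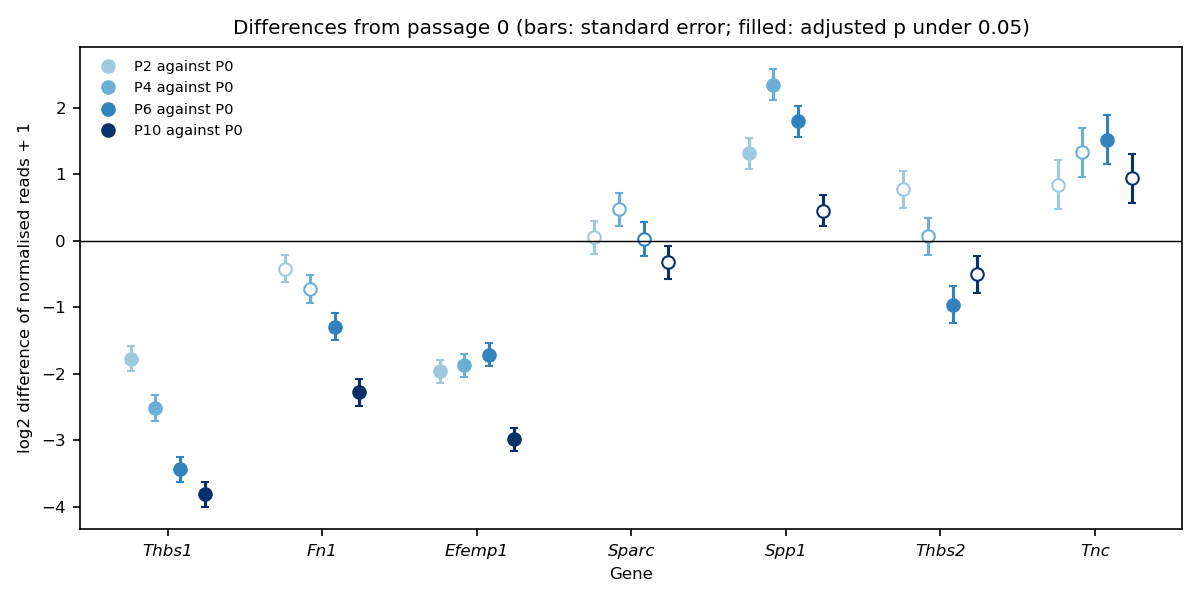
Difference of mean log2(normalised reads + 1) between each later passage and P0 for the 7 tested genes, with the standard error as bars and filled points where the adjusted p was under 0.05. Thbs1 goes from -1.77 at P2 to -3.81 at P10 and Fn1 from -0.42 to -2.28, Efemp1 stands at -1.96, -1.87 and -1.71 before it reaches -2.98, and Spp1 reaches 2.35 at P4 and 0.46 at P10.

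Spp1 encodes osteopontin, a secreted phosphoprotein that binds integrins and Cd44. Unlike Thbs1, Fn1 and Efemp1 it was higher at P2, P4 and P6 than at P0, with 61.8 and 74.7 normalised reads (P0), 187 and 155 (P2), 364 and 337 (P4), 282 and 202 (P6), and 100.4 and 87.4 (P10). Both P4 libraries were the highest, and the P10 libraries, though above both P0 libraries, lay below all those of P2, P4 and P6. Over all tested features, the P10 duplicates did not overlap with those of P0 in 54.3%, P2 in 42.7%, P4 in 45.0% and P6 in 24.5%. The P4 duplicates did not overlap with those of P0 in 72.4%, P2 in 51.9% and P6 in 66.5%. Spp1 rose by 1.32 on the log2 scale at P2 (SE 0.24, adjusted p = 0.0211), by 2.35 at P4 (adjusted p = 0.00111) and by 1.80 at P6 (adjusted p = 0.00251). At P10 the difference from P0 was 0.46 (adjusted p = 0.220). The P4 and P6 calls held in all 10 fits without 1 library, but the P2 call needed both libraries of each of P0, P2 and P4 (highest adjusted p = 0.219, without P2 replicate 1). The P10 difference lay above 75.5% of all tested features, compared with 99.3% at P4. The other genes of the protein family of Spp1 (Ibsp, Dmp1, Dspp and Mepe) all had means under 10 and were not tested.

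Tnc encodes tenascin C, a large hexameric glycoprotein of remodelling tissue, and was covered by 9 to 48 reads per library. Its values were 12.2 and 12.9 normalised reads (P0), 32.3 and 16.8 (P2), 33.6 and 32.6 (P4), 37.6 and 38.2 (P6), and 28.7 and 21.9 (P10). Every later library was above both P0 libraries, and the P2 duplicates differed by 1.93-fold. Over all tested features, the duplicates of a later passage did not overlap with those of P0 in 54.3 to 72.4%. Tnc rose by 1.52 on the log2 scale at P6 (SE 0.37, adjusted p = 0.0238). The differences of 0.84 at P2, 1.33 at P4 and 0.94 at P10 did not pass (adjusted p = 0.267, 0.0574 and 0.114). The P4 value passed by limma when only the P0 and P4 libraries entered the fit (adjusted p = 0.00670). The P6 call was lost without any 1 library of P0, P4 or P6 (highest adjusted p = 0.132, without P0 replicate 1).

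Sparc encodes a calcium-binding matricellular protein that binds collagen. Its libraries held 8143 and 8527 normalised reads (P0), 9513 and 7842 (P2), 11593 and 11558 (P4), 10014 and 7210 (P6), and 5661 and 7836 (P10). The P4 libraries were the highest, but the duplicates of P6 and P10 differed by 1.39-fold and 1.38-fold. The shares of all features whose P4 duplicates did not overlap with another passage are those given for Spp1. No difference from P0 passed, with log2 values of 0.05, 0.47, 0.03 and -0.32 (SE 0.25 each, adjusted p = 0.950, 0.286, 0.940 and 0.413). The P4 value passed when only the P0 and P4 libraries entered the fit (adjusted p = 0.00599) and without both P6 replicate 2 and P10 replicate 1 (0.00662). The highest of its 10 values was 2.05 times the lowest, against 16.9 times for Thbs1.

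Vtn, which encodes vitronectin, a glycoprotein made mainly by liver and abundant in serum, had 1 read in all, in P4 replicate 1, among 117952817 reads in the 10 libraries. A count of 0 in a library allows up to 3 reads of it. The hepatocyte markers Alb, Apoa1, Ttr, Ahsg and Fgb together summed to 3.91 to 13.1 normalised reads per library.

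**Figure D3:**
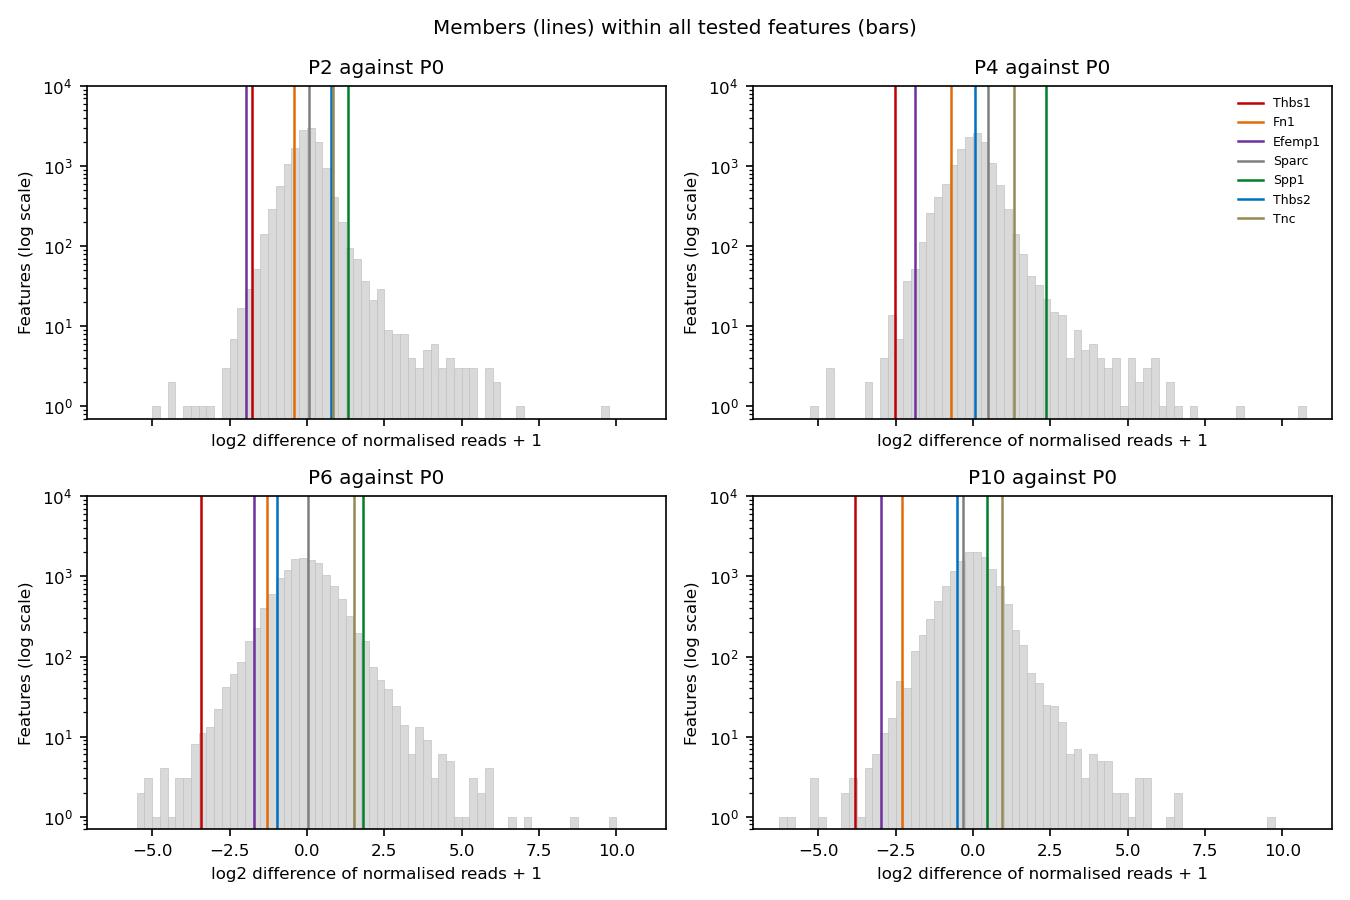
Distribution of the log2 difference from P0 over the 13521 tested features in bins of 0.25 (bars, log scale), 1 panel per later passage, with each of the 7 genes as a coloured line. Thbs1 lies at -3.81 and Efemp1 at -2.98 in the lower tail at P10, while Sparc stays near the centre and Spp1 leaves the upper tail between P4 (2.35) and P10 (0.46).

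Between neighbouring passages no difference passed after adjustment over all features. By limma, 0 of the 7 genes and 0 of all features (0.00%) passed from P2 to P4, from P4 to P6 or from P6 to P10. At an unadjusted p under 0.05 there were 285, 3450 and 1273 features, of which 3, 4 and 3 were among the 7. edgeR also called 0 features in each step, and DESeq2 called 10, 396 and 67, with 0, 1 and 3 of the 7. The gene that DESeq2 called from P4 to P6 was Thbs1 (log2 -0.90, adjusted p = 0.0113), and from P6 to P10 they were Efemp1 (-1.28, 8.04e-06), Spp1 (-1.40, 0.00114) and Fn1 (-1.02, 0.00699). From P6 to P10, Efemp1 had the smallest limma p-value of all 13521 features (log2 difference -1.27, SE 0.17, adjusted p = 0.318). Without P10 replicate 1 these 3 genes passed by limma as well (adjusted p = 0.00945 for Efemp1, 0.0164 for Spp1 and 0.0225 for Fn1).

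The comparison of P10 with P2 does not use the P0 means and shows how far the genes moved after the first sampled change. The P0 libraries still entered the pooled spread of its main test. Thbs1, Fn1 and Efemp1 fell, with log2 changes of -2.04 (SE 0.19, adjusted p = 0.00293), -1.86 (SE 0.21, adjusted p = 0.00598) and -1.02 (SE 0.17, adjusted p = 0.0331). Thus 3 of 7 passed as lower, where 1.26% of all features passed (0.636% lower and 0.621% higher). Thbs2 stood at -1.28 (adjusted p = 0.0680), Spp1 at -0.86 (0.119), Sparc at -0.37 (0.484) and Tnc at 0.10 (0.922). Thbs1 missed the threshold without P2 replicate 2 (0.0743), Fn1 without P2 replicate 1 or 2 (0.0784 and 0.101), and Efemp1 when any single P0, P2 or P4 library was left out (highest 0.315). From the P2 and P10 libraries alone limma called 0 of the 3 (0.211, 0.211 and 0.537) and 0 of all 13521 features, against 2360 at an unadjusted p under 0.05 in the fit of all libraries, where edgeR called 137 and DESeq2 832.

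P10 was also set against P4, a comparison chosen after the values were seen because P4 holds the peak of Spp1. The p-values of this comparison are therefore too favourable for that gene. The same holds for Sparc, whose highest mean was also at P4 and which did not pass (log2 -0.80, adjusted p = 0.180). Spp1, Fn1 and Thbs1 passed as lower, with log2 changes of -1.89 (SE 0.24, adjusted p = 0.0270), -1.56 (adjusted p = 0.0324) and -1.30 (adjusted p = 0.0477), and Efemp1 stood at -1.12 (adjusted p = 0.0515). Of all features 0.222% passed (0.170% lower and 0.0518% higher). Each of the 3 calls was lost when any single P0, P2 or P4 library was left out (highest adjusted p = 0.412, 0.499 and 0.545, all without P4 replicate 2). Thbs1 was also lost without either P6 library (0.0513 and 0.0521) and without P10 replicate 1 (0.0712).

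Receptors for these glycoproteins were looked at from lists of the known receptors. Of 12 integrin subunits, 10 were tested, and 4 fell at P10 (Itga5, Itga3, Itgb1 and Itga9) with no riser, where 8.25% of all features fell and 8.77% rose, and the median log2 difference was -0.99 beside 0.00 over all features. Itga5, whose product pairs with that of Itgb1 as the fibronectin receptor, fell from 1033 to 433 normalised reads in the mean (log2 -1.25, SE 0.24, adjusted p = 0.0115), and Itga3, a laminin-binding subunit, from 1511 to 486 (log2 -1.68, SE 0.33, adjusted p = 0.0115). Itgb1, the common beta subunit, was already lower at P2 (log2 -0.86, adjusted p = 0.0416) and had the same difference at P10 (-0.86, adjusted p = 0.0176). The subunits of the vitronectin receptor, Itgav, Itgb3 and Itgb5, had P10 differences of -0.35, 0.09 and -0.61 that did not pass (adjusted p = 0.238, 0.930 and 0.144). Itga9, whose product binds tenascin C and osteopontin and which was named after its value was seen, fell (log2 -1.60, adjusted p = 0.0264). The P10 calls of Itga5 and Itga3 were lost without P0 replicate 1 (adjusted p = 0.112 and 0.114), that of Itgb1 without any 1 library of P0 or P4 (highest 0.155) and that of Itga9 when any single P0, P2 or P4 library was left out (highest 0.170). The P2 call of Itgb1 was lost in the same 6 fits (highest 0.345). From the P0 and P10 libraries alone none of the 4 passed.

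Among 7 tested receptors outside the integrin family, 1 rose and 3 fell at P10, beside the same 8.77% and 8.25% of all features. Cd36, a scavenger receptor that binds Thbs1, rose from 60.3 normalised reads at P0 to 3452, 3534, 3486 and 1748 at P2 to P10 (log2 5.84 at P2 and 4.83 at P10, adjusted p = 1.15e-05 and 4.67e-05), and passed in all 10 fits without 1 library. Cd47, the other main Thbs1 receptor, fell at P10 (log2 -0.81, adjusted p = 0.0131), a call lost without either P0 library (highest 0.123). Lrp1, an endocytic receptor that clears thrombospondins, fell from 4239 to 774 (log2 -2.45, adjusted p = 0.00172), also in all 10 such fits. The third fall, in the fibronectin-binding proteoglycan Sdc4, was -1.22 (adjusted p = 0.0387) and held in 3 of the 10. Cd44, an osteopontin receptor, stayed at means of 6723 to 8524 normalised reads (adjusted p = 0.661 at P10). From the P0 and P10 libraries alone Cd36 passed and Cd47, Lrp1 and Sdc4 did not.

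**Figure D4:**
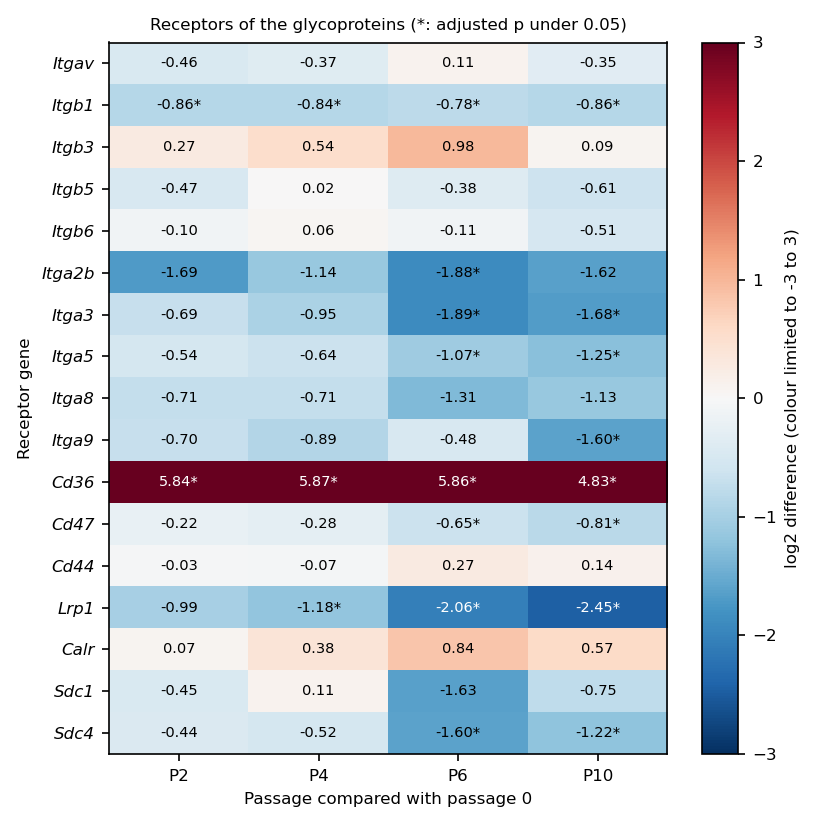
Log2 difference from P0 for the 10 tested integrin subunits and the 7 other tested receptors (rows) at P2, P4, P6 and P10 (columns), printed in each cell and coloured from blue (lower) to red (higher) with the colour limited to -3 to 3, and with an asterisk where the adjusted p was under 0.05. Cd36 is the only receptor drawn with a rise that passed, at 4.83 to 5.87, and Lrp1 goes from -0.99 at P2 to -2.45 at P10.

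The remaining lists held other matricellular proteins, adaptors, enzymes and the TGF-beta pathway. Of 8 tested matricellular relatives, 1 rose and 1 fell at P2 and 1 fell at P10, where 4.15% and 17.0% of all features passed. The riser at P2 was Postn, periostin (log2 2.33, adjusted p = 0.00101), and the gene that fell at both was Cyr61, an integrin-binding matricellular protein, at -1.49 and -2.33 (adjusted p = 0.00629 and 0.000494). The P2 call of Cyr61 was lost without any 1 library of P0 or P2 (highest 0.0949). Of 12 focal adhesion adaptors, 1 rose and 2 fell at P10, beside the 17.0% of all features that passed, namely Ptk2, focal adhesion kinase (0.61, adjusted p = 0.0276), Zyx, zyxin (-2.55, 0.000883) and Actn1, alpha-actinin (-0.92, 0.0160). Zyx passed in all 10 fits without 1 library, Actn1 was lost without either P0 library (highest 0.146) and Ptk2 when any single P0, P2 or P4 library was left out (highest 0.152).

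Of 7 tested genes of matrix crosslinking and the plasmin system, 2 rose and 1 fell at P10, where 17.0% of all features passed. Tgm2, transglutaminase 2, which crosslinks fibronectin, rose from a mean of 3989 normalised reads at P0 to 10480, 18355, 13783 and 9712 at P2 to P10 (log2 1.39 at P2 and 1.25 at P10, adjusted p = 0.0404 and 0.0250), with its highest mean at P4, as for Spp1. Adamts1, a protease that cleaves matrix proteoglycans, fell (log2 -1.18, adjusted p = 0.0134). Both Tgm2 calls were lost when any single P0, P2 or P4 library was left out (highest 0.265), and that of Adamts1 without either P0 library (highest 0.118). Of 13 TGF-beta pathway genes, beside 17.0% of all features, 1 rose (Smad2, 0.73, adjusted p = 0.0384) and 3 fell at P10, the receptors Tgfbr3 (-1.11, 0.00389) and Tgfbr2 (-0.998, 0.0162) and the latent binding protein Ltbp1 (-0.72, 0.0195). Each of these 4 was lost without P0 replicate 1 (0.195, 0.0562, 0.146 and 0.148), all but Tgfbr3 also without P0 replicate 2, and Smad2 and Ltbp1 also without any 1 library of P2 or P4, Smad2 also without P10 replicate 1. From the P0 and P10 libraries alone none of the genes named in these lists at P10 passed.

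The features whose course was most like that of Thbs1 or Fn1 were ranked by Pearson's r of log2(normalised reads + 1) over the 10 libraries, among 9277 features with a mean of at least 50. The points share libraries and come in pairs of duplicates, so r is a description. For Thbs1 they were Pnpla7, a lysophospholipase (r = 0.997), Boc, a cell-surface receptor for hedgehog ligands (0.996), Pdzd2 (0.985), Gpr107 (0.985) and the desmosomal protein Dsp (0.985). Pnpla7 had means of 604, 383, 320, 253 and 235 normalised reads from P0 to P10, and Boc of 561, 255, 189, 132 and 108. For Fn1, 4 of the 5 were Tmtc1 (0.968), the GABA-B receptor subunit Gabbr1 (0.965), the laminin chain Lamc1 (0.958) and Cdon, a partner of Boc in hedgehog binding (0.958). Lamc1 had means of 9362, 8610, 6743, 5041 and 4218. With 1 library left out, 2 to 5 of the 5 for Thbs1 and 1 to 5 of the 5 for Fn1 were again among the first 5. Among the glycoproteins themselves, r was 0.894 for Thbs1 with Fn1, 0.872 for Thbs1 with Efemp1, 0.817 for Fn1 with Efemp1, 0.804 for Spp1 with Tnc, and -0.435, -0.0275 and -0.307 for Spp1 with Thbs1, Fn1 and Efemp1.

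**Figure D5:**
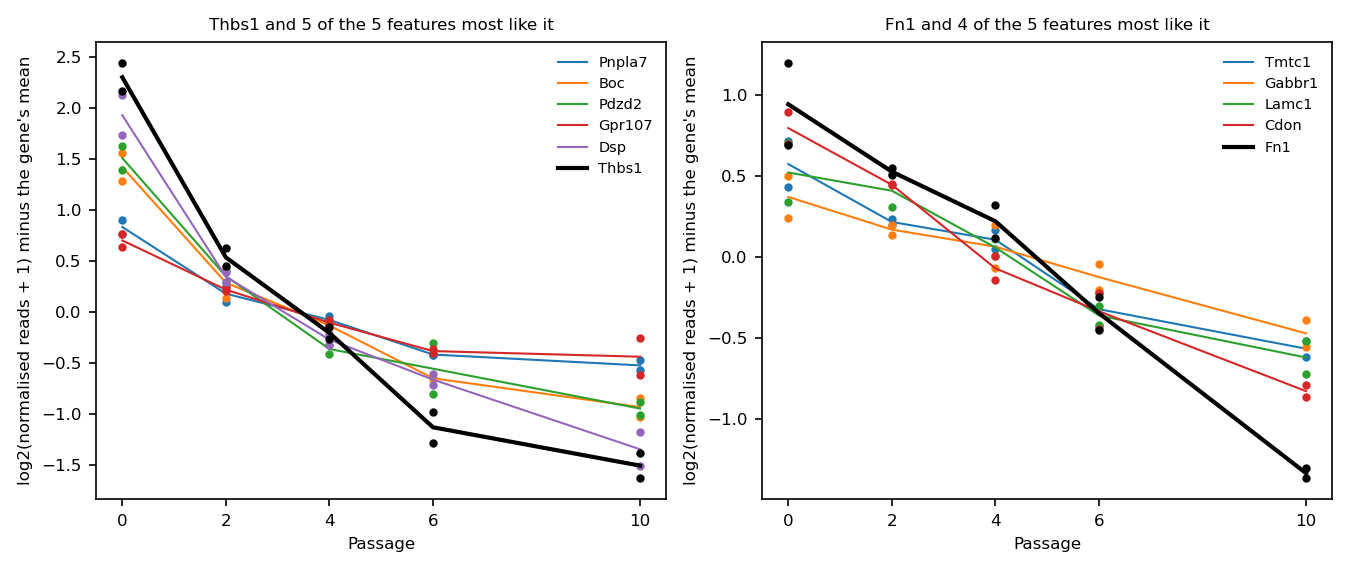
Log2(normalised reads + 1) minus each gene's own mean against passage for Thbs1 (left) and Fn1 (right) in black. The 5 ranked features most like Thbs1 and 4 of the 5 most like Fn1 are in colour. Points show libraries and lines run through passage means. Thbs1 and its 5 neighbours drop most between P0 and P2, whereas Fn1 has its largest drop between P6 and P10, the longest interval.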

How the data were processed

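RNA-seq of 10 CHO-K1 libraries was analysed (5 passages, 2 libraries each, grouped by the labels). Per the labels' protocols, RNA was extracted with TRIzol, depleted of ribosomal RNA with Ribo-Zero and made into stranded TruSeq libraries. The deposited values are a signal for each feature, normalised by the authors with DESeq, per the submitters' processing notes. Neither aligner, counting tool, build nor annotation is given in the sources used here. In each column 100% of the values above 0 are whole multiples of 1 step within 0.001 reads, which gave back whole reads; for P4 replicate 1 an automatic check could not tell this from rounding, because the step lies near 1. Reads served only for depth and the count-based alternatives. Of 20050 features named by a gene number, 16386 matched a symbol in the RefSeq table of CriGri-PICRH-1.0, used for names only.

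The main test was limma 3.58.1 (R 4.3.3; mean per passage, trended prior, 5 residual degrees of freedom, two-sided) on log2(value + 1), at a mean of at least 10; fold changes on that scale understate changes of low genes. Tests were checked on simulated data with the same spread at all passages. Duplicates here differed more at P6 and P10, so that check cannot judge the pooled spread. Alternatives were a pseudocount of 0.5 or 5, no filter or a mean of at least 50, TMM, edgeR 4.0.16, DESeq2 1.42.0, the compared passages alone, the replicate number as a block, and leaving out libraries. All 8 genes were named; of each other list (15 lists, 117 of 127 entries matched) up to 3 called genes with the smallest p at P10 or P2 were named, and further genes behind counts of 5 or fewer after their values were seen, as were genes that did not pass; the likeness rule took the first 5 features. The genes and lists were chosen with earlier results of these data known. Labels give no sequencing batch. Some genes that the naming rules would give are not reported here.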

Additional observations from a re-analysis of the deposited data

How the results depend on the processing

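Among the 7 tested genes, pseudocounts of 0.5 and 5 and TMM changed no count of calls against P0, and a mean of at least 50 removed Thbs2 and Tnc from the test. When 1 library was left out, the number called was 2 to 3 at P2, 3 to 5 at P4, 3 to 6 at P6 and 3 to 3 at P10, 4 to 6 for any passage, 0 to 0 from P2 to P4, 0 to 2 from P4 to P6, 0 to 3 from P6 to P10, 0 to 4 for P10 against P2 and 0 to 5 for P10 against P4. Without both P6 replicate 2 and P10 replicate 1, an alternative chosen after seeing the data, P6 and P10 each kept 1 library. More of the 7 genes and more of all features then passed at P2, at P4, for the 3 steps and for P10 against P2 and P4. From the compared passages alone the number of the 7 called was 6 at P4, 2 from P2 to P4 and 0 for P10 against P2 and P4. Over all 13521 features it was 5677, 569, 0 and 0. DESeq2 called 1 of the 7 from P4 to P6, 3 from P6 to P10 and 5 each for P10 against P2 and P4. Over all features DESeq2 called 396, 67, 832 and 619. Without a filter 1 of the 7 passed for P10 against P4, beside 14 of all features. Over all features, the 561 calls at P2 became 61 to 1578 and the 2301 at P10 became 315 to 4738 with 1 library left out, and 3940 and 49 from the compared passages alone.

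Log2 differences that changed sign had not passed. Sparc at P2 became -0.0876 without P2 replicate 1 (range -0.0876 to 0.19), Thbs2 at P4 -0.0454 without P0 replicate 1 and -0.0087 without P4 replicate 2 (range -0.0454 to 0.18), and Sparc at P6 -0.0050 without P0 replicate 1 and -0.21 without P6 replicate 1 (range -0.21 to 0.27). Tnc in P10 against P2 became -0.35 without P2 replicate 2 (range -0.35 to 0.55) and -0.0896 without P10 replicate 1, alone or with P6 replicate 2. The cause was not tested.

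Deviations of same-numbered libraries from their passage means correlated at r of -0.670 to 0.225 over the 10 pairs of passages. Between P6 and P10 r was -0.670, so libraries of opposite number deviated alike there. Whether the numbers pair the samples cannot be decided from these values, since a low r can also arise in paired samples. The main test used no pairing. With the replicate number as a block, 0 of the 7 genes passed for P10 against P4 (adjusted p = 0.0951, 0.0916 and 0.0951 for Thbs1, Spp1 and Fn1), and Thbs2 at P6 (0.0608), Thbs2 for any passage (0.0586) and Efemp1 in P10 against P2 (0.0741) were lost. Of the other genes named, the block ended the calls of Itgb1 (0.0786) and Tgm2 (0.0829) at P2 and of Itga9 (0.0506) and Sdc4 (0.0682) at P10. Without a filter, Itgb1 (0.0866) and Tgm2 (0.0663) at P2 and Sdc4 (0.0536), Ptk2 (0.0504) and Smad2 (0.0530) at P10 were lost, and edgeR missed Itgb1 at P2 (0.0528). Thbs2 and Tnc rest on at most 58 and 48 reads per library, which limits their precision.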
